A study of Homo sapiens with 6 samples.

Results

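The snoRNA host genes and the abundant long noncoding RNAs were followed in 2 pancreatic ductal adenocarcinoma (PDAC) cell lines in which retinoic acid receptor γ (RARγ) was inhibited. They were chosen by symbol: every SNHG gene carrying a number (21 genes), together with GAS5, ZFAS1, DANCR, TUG1, NEAT1, MALAT1, EPB41L4A-AS1, CYTOR and NORAD (9 genes). These make 30 of the 53826 entries listed for each library, and 28 of them lay above the lowest listed value in at least 1 library. RNA-seq was carried out to see which gene expression follows RARγ inhibition. PK-1 and Panc-1 cells, both established human PDAC cell lines, were sequenced as the control and after 24 h of RARγi-1 (the compound LY2955303) or of RARγi-2 (the compound MM11253), both of them RARγ inhibitors. There was 1 library for each of the 6 conditions, so no test within a cell line can be made, a fit over both lines with the line as a block was not run, and the dose used for the RNA-seq and the vehicle of the control are not stated. The treatment entry for both RARγi-2 libraries reads RARγi-1, and the libraries were assigned by their titles.

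A snoRNA host gene carries small nucleolar RNAs in its introns. After splicing, the intron yields the snoRNA, which guides ribose methylation (box C/D type) or pseudouridylation (H/ACA type) of ribosomal RNA, while the spliced exons remain as a long noncoding RNA. Many hosts start their transcripts with a C followed by a run of pyrimidines, the start that is typical of ribosomal protein mRNAs and that ties translation to mTOR, and the spliced GAS5 RNA is a classic substrate of nonsense-mediated decay once it is translated. Among the other members, NEAT1 is the scaffold of paraspeckles, MALAT1 is found in nuclear speckles, and NORAD is a cytoplasmic RNA that is induced by DNA damage. The libraries were made with a poly(A)-based stranded mRNA kit, so the values describe the spliced host RNAs, not the snoRNAs.

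In RefSeq (GRCh38.p14), 20 of the 30 members held at least 1 annotated snoRNA within their span, 52 snoRNAs in all. Only snoRNAs with a SNORA or SNORD symbol were counted. GAS5 (chr1:173863901-173869045, minus strand) held 11, of which 10 were box C/D, and SNHG1 (chr11:62851978-62855885, minus strand) held 8, all box C/D. SNHG17 (chr20:38420588-38435328, minus strand) held the 4 H/ACA snoRNAs SNORA71A to SNORA71D. ZFAS1 (chr20:49278178-49289260, plus strand) held SNORD12, SNORD12B and SNORD12C. Of the 20 hosts, 8 held box C/D snoRNAs only, 10 held H/ACA only, and GAS5 and SNHG12 held both. No SNORA or SNORD gene was annotated within CYTOR, NEAT1, MALAT1, NORAD, TUG1, SNHG10, SNHG20, SNHG21, SNHG22 or SNHG27. Small RNAs with other symbols were not looked for, so some of these members may still be hosts.

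The transcript starts show what many of these genes share. In GENCODE 29 (GRCh38), 15 of the 28 members above the lowest listed value had at least 1 annotated transcript whose first base was C and began a run of at least 5 pyrimidines (53.6%). The same held for 16.1% of the 15195 genes above that value and for 81% of the 84 cytosolic ribosomal protein genes. Members with many annotated transcripts have more chances of such a start, and counted per transcript it was 12% of 284 against 2.62% of 128006. At the RefSeq starts, 6 of 25 members had it (SNHG4, SNHG5, SNHG12, SNHG18, SNHG19 and ZFAS1), against 4.07% of all 35116 promoters. GAS5, SNHG8 and SNHG16 did not have it there. The first 40 bases from 1 annotated GENCODE start are given below for 6 members that had such a start and then for 4 that had none, because both kinds include RNAs that rose and RNAs that fell. Where any transcript had such a start, 1 is printed, even where few had it (6 of 29 transcripts for GAS5, 1 of 5 for SNHG8). Capitals mark the run of pyrimidines.
GAS5: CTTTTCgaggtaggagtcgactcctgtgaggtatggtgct
ZFAS1: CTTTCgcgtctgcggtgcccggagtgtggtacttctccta
SNHG5: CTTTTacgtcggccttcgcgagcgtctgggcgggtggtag
SNHG8: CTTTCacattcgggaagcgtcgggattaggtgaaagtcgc
SNHG16: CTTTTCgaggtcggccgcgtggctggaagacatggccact
SNHG19: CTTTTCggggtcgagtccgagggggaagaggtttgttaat
EPB41L4A-AS1: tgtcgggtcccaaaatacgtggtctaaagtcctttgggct
SNHG15: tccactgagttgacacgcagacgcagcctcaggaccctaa
DANCR: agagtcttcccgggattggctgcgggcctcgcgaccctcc
NORAD: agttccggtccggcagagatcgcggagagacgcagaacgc

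These starts lie at base 173867989 of chromosome 1 on the minus strand (GAS5), base 49278642 of chromosome 20 on the plus strand (ZFAS1) and base 85678733 of chromosome 6 on the minus strand (SNHG5). SNHG8 starts at base 118278758 of chromosome 4 (plus strand), SNHG16 at base 76557769 of chromosome 17 (plus strand) and SNHG19 at base 2155358 of chromosome 16 (minus strand). Of the starts with no such run, EPB41L4A-AS1 lies at base 112160526 of chromosome 5 (plus strand), SNHG15 at base 44986834 of chromosome 7 (minus strand), DANCR at base 52712404 of chromosome 4 (plus strand) and NORAD at base 36050960 of chromosome 20 (minus strand). At these starts, GAS5, SNHG16 and SNHG19 begin with the same 6 letters. Which start is used in these cells was not measured.

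Expression was deposited as log2 of TPM, a relative level that is scaled for transcript length and library total, so that levels of different genes can be set side by side. Values below 1 TPM were all set to 1 TPM, here called the floor, and between 74.6% and 75.6% of entries lay at it in each library. TPM keeps no read depth, so sequencing depth cannot be known and the files give no counting error. A log2 fold change is the log2 ratio of (TPM + 1) between a treated library and its cell line's control, which understates the change of low genes, and a gene rose or fell where this passed 2-fold. The spread of a log2 fold change was taken from the difference between both treated libraries of a line. It was 0.41 in PK-1 and 0.32 in Panc-1. It also holds any difference between the compounds, so it is only a rough scale for the noise. Noise that both treated libraries share against their control is not in it. RARγi-1 and RARγi-2 were compared with the same control library in each line, so their values are given side by side and a shared direction is not independent support. Cells were measured in bulk, so a change in the mix of cells cannot be told apart from a change in RNA per cell.

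The epithelial keratins KRT8, KRT18 and KRT19 were between 1454 and 6408 TPM in the controls of both lines. The other epithelial markers differed between the controls: KRT7 was at 5663 TPM in PK-1 against 4.19 TPM in Panc-1, EPCAM at 578 against 13.4 TPM, and CDH1, the E-cadherin gene, at 170.1 TPM against the floor, while MUC1 was at 1.02 against 29.3 TPM. VIM, the mesenchymal vimentin gene, was at 41.7 TPM in the PK-1 control against 6291 TPM in that of Panc-1. The sum of 7 epithelial markers was 22499 TPM in the PK-1 control and 13509 and 14129.5 TPM with the inhibitors, and 8447 TPM in the Panc-1 control and 1803 and 1503 TPM with the inhibitors. Of 12 markers of other cell types, 9 were at the floor in all libraries, including PTPRC, CD3E, PECAM1, COL1A2, DCN, ALB and INS. The remaining CD68, COL1A1 and PRSS1 summed to 24.1 TPM in the PK-1 control and 118 and 97.3 TPM with the inhibitors, and COL1A1 and CD68 to between 240.4 and 297 TPM in Panc-1. The part of these shifts in the results below was not tested.

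Of the 28 members measured in PK-1, 2 rose with RARγi-1 (GAS5 and NEAT1) and 3 with RARγi-2 (GAS5, NEAT1 and ZFAS1), which is 7.14% and 10.7% of them, against 9.05% and 11.9% of all 14269 entries above the floor in that line. SNHG4 fell with RARγi-1, and SNHG4 and SNHG16 fell with RARγi-2, where 4.85% and 12.3% of all entries did. The PK-1 counts lie near or under these backgrounds. In Panc-1, 10 of the 26 measured members rose with each inhibitor (38.5%), where 7.3% of all 14184 entries rose with RARγi-1 and 8.34% with RARγi-2. CYTOR fell with RARγi-1, and CYTOR and DANCR fell with RARγi-2, against 5.96% and 11% of all entries. Among entries reaching 10 TPM in the line, 8.73% rose and 7.24% fell with RARγi-1 in Panc-1, and 10.1% rose and 12.9% fell with RARγi-2. In PK-1, 10.7% of such entries rose and 5.92% fell with RARγi-1, and 14% rose and 15.2% fell with RARγi-2.

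The median log2 fold change over the members in PK-1 was 0.15 (RARγi-1) and 0.01 (RARγi-2), beside 0.13 and 0.01 over all entries. In Panc-1 the members' median was 0.29 (RARγi-1) and 0.51 (RARγi-2), beside 0.08 and -0.01 over all entries. The members were widely spread around these medians, from -2.82 to 1.96 in PK-1 with RARγi-2 and from -1.48 to 2.67 in Panc-1 with RARγi-2. In Panc-1 with RARγi-2, 15 of 26 members lay above the upper quartile of all entries (0.40) and 5 below the lower quartile (-0.49). With RARγi-1 in the same line these were 12 and 6.

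**Figure D1:**
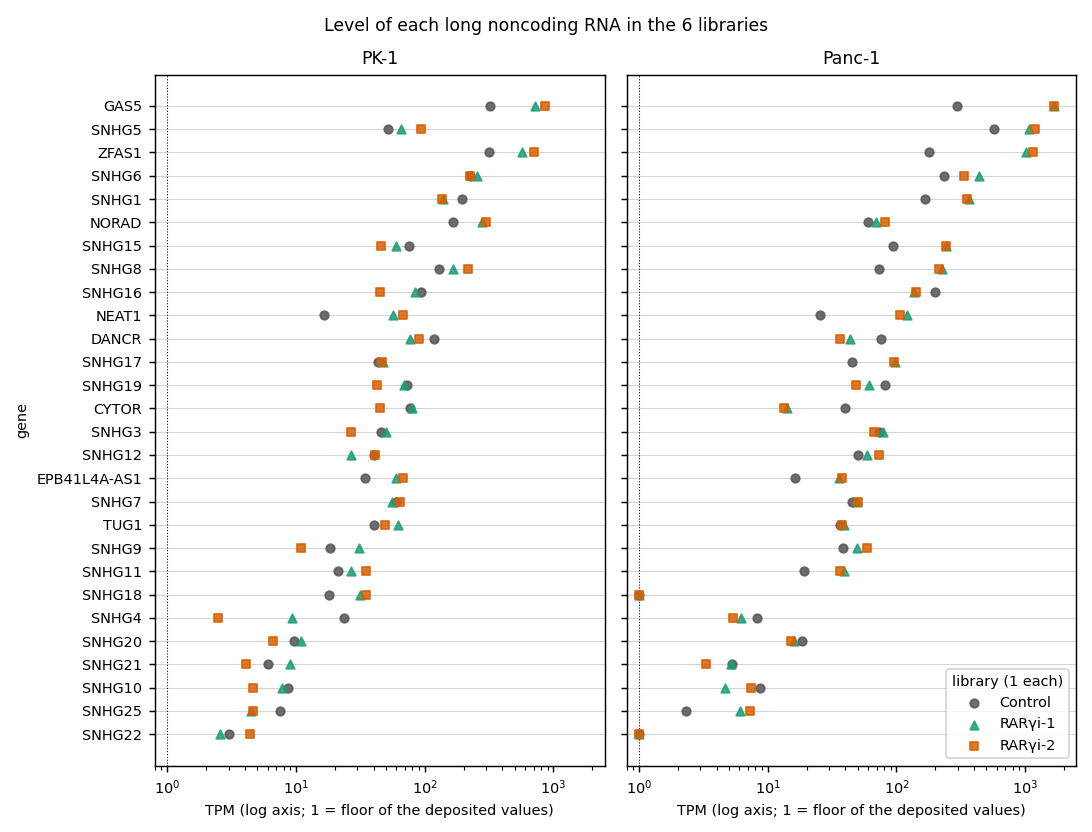
Level in TPM (log axis) of each member above the floor in the PK-1 libraries (left) and the Panc-1 libraries (right), with 1 point per library for the control, RARγi-1 and RARγi-2. GAS5 reached 853 TPM in PK-1, beside 1687 TPM in Panc-1, and SNHG4 in PK-1 had points far apart at 23.7, 9.25 and 2.49 TPM.

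Among the hosts, GAS5, first known from growth-arrested cells, had the highest level of the members in every library but the Panc-1 control. Its level in PK-1 was 321 TPM in the control, 721 TPM (RARγi-1) and 853 TPM (RARγi-2). In Panc-1 it was 293 TPM in the control, 1681 TPM (RARγi-1) and 1687 TPM (RARγi-2). Both controls were thus at about the same level, both inhibitors gave higher values in each line, and the values in Panc-1 went much further up. The log2 fold change was 1.16 and 1.41 in PK-1 (RARγi-1, then RARγi-2, as in the rest of the text) and 2.52 with each inhibitor in Panc-1, a 5.72-fold and 5.74-fold rise. In Panc-1, only 0.458% of all entries had a larger log2 fold change with RARγi-1 and 0.754% with RARγi-2, compared with 6.15% and 6.26% in PK-1.

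ZFAS1, which lies antisense to the start of the protein-coding gene ZNFX1, had a similar pattern. It was at 314 TPM in the PK-1 control, 567 TPM (RARγi-1) and 699.7 TPM (RARγi-2). Its Panc-1 values were 178 TPM in the control, 1013 TPM (RARγi-1) and 1141 TPM (RARγi-2). The Panc-1 control was the lowest of the 6 libraries, and both treated Panc-1 libraries were the highest. In PK-1 the log2 fold changes were 0.85 and 1.15, beside 2.50 and 2.67 in Panc-1, with 0.472% and 0.627% of entries larger in Panc-1. ZNFX1 was at 29.8, 51.0 and 26.0 TPM in PK-1 and at 18.4, 19.5 and 17.5 TPM in Panc-1, so in Panc-1 its level was nearly the same in the 3 libraries. The 2 genes overlap by 249 bases on opposite strands in GENCODE 29, and whether the counting used strand is not stated.

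GAS5 and ZFAS1 alone were 28.4% of the members' summed TPM in the PK-1 control and 42.2% and 47.6% with the inhibitors. In Panc-1 their share was 19.1% in the control and 45.1% and 46.4% with the inhibitors. The sum over all members above the floor was 2237 TPM in the PK-1 control, 3051 TPM (RARγi-1) and 3263 TPM (RARγi-2). In Panc-1 the sum was 2464 TPM in the control, 5970.3 TPM (RARγi-1) and 6090.2 TPM (RARγi-2). Without GAS5 and ZFAS1, the sum was 1602, 1763 and 1709.7 TPM in PK-1 and 1993, 3275 and 3262 TPM in Panc-1. The higher sum in PK-1 was therefore mostly GAS5 and ZFAS1, whereas in Panc-1 the other members were also higher in sum.

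**Figure D2:**
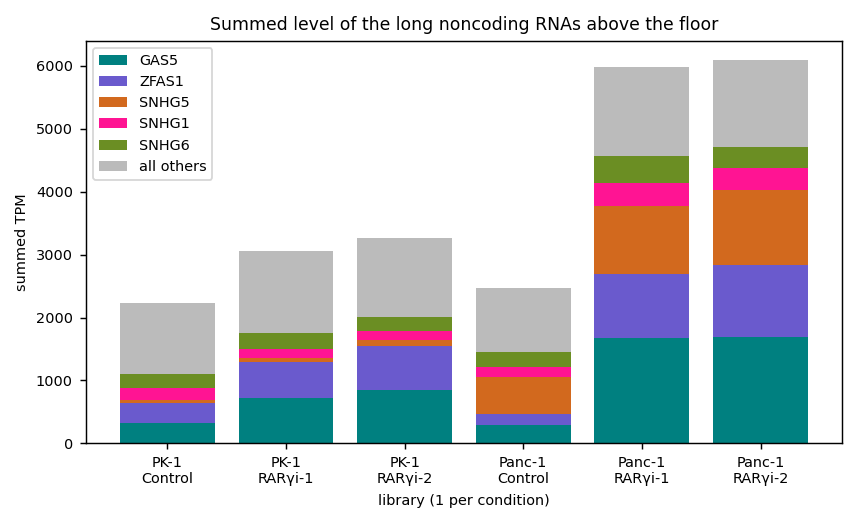
Summed TPM of the members above the floor in each of the 6 libraries, from 0 upwards, with GAS5, ZFAS1, SNHG5, SNHG1, SNHG6 and all other members stacked. The sum was 2237, 3051 and 3263 TPM in PK-1 and 2464, 5970.3 and 6090.2 TPM in Panc-1 (control, RARγi-1, RARγi-2).

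Among the other hosts of box C/D snoRNAs, SNHG5, the host of SNORD50A and SNORD50B, was at 52.1, 64.9 and 92.7 TPM in PK-1 (control, RARγi-1, RARγi-2). In Panc-1 it was at 577, 1072 and 1201 TPM. The Panc-1 control exceeded every PK-1 library, with a log2 difference of 3.45 between the controls. It rose with RARγi-2 in Panc-1 (1.05) and stood at 0.89 with RARγi-1, and at 0.31 and 0.82 in PK-1. SNHG6, the host of SNORD87, was at 226, 254 and 225 TPM in PK-1 and at 235, 438 and 333 TPM in Panc-1. No comparison of SNHG6 passed 2-fold, with log2 fold changes of 0.17 and -0.01 in PK-1, beside 0.90 and 0.50 in Panc-1.

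SNHG1, which carries 8 box C/D snoRNAs, went different ways in the cell lines. Its level was 195, 139 and 137 TPM in PK-1, where both treated libraries were below the control. It was 166, 363 and 351 TPM in Panc-1, where both were above it. Its PK-1 log2 fold changes, -0.48 and -0.51, were short of 2-fold, beside 1.12 and 1.07 in Panc-1. SNHG25, the host of SNORD104, had the same signs at far lower levels, with 7.52, 4.44 and 4.60 TPM in PK-1 and 2.31, 6.12 and 7.21 TPM in Panc-1. These gave log2 fold changes of -0.65 and -0.60 in PK-1, beside 1.10 and 1.31 in Panc-1, and at such levels the pseudocount pulls them towards 0.

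SNHG16, the host of SNORD1A, SNORD1B and SNORD1C, was lower in every treated library than in its control. In PK-1 it was at 93.8, 83.7 and 45.2 TPM, and it fell with RARγi-2 (-1.04) while it stood at -0.16 with RARγi-1. In Panc-1 it was at 198, 138 and 143 TPM, with log2 fold changes of -0.52 and -0.47. The fall with RARγi-2 in PK-1 sat just past 2-fold and was -0.99 once the libraries were rescaled by median ratios. SNHG19, the host of SNORD60, was at 72.1, 69.6 and 42.8 TPM in PK-1 and at 81.4, 61.0 and 48.5 TPM in Panc-1 and never passed 2-fold. SNHG18, the host of SNORD123, was at 18.0, 31.4 and 35.2 TPM in PK-1 (0.77 and 0.93) and at the floor in the 3 Panc-1 libraries.

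Hosts of H/ACA snoRNAs rose in Panc-1 in 5 of 10 cases with RARγi-1 and in 4 of 10 with RARγi-2, against 7.3% and 8.34% of all entries. In PK-1 none of the 10 rose and 1 fell with each inhibitor, where 9.05% and 11.9% of all entries rose and 4.85% and 12.3% fell. SNHG8, the host of SNORA24, was at 128, 164 and 216 TPM in PK-1 and at 72.8, 227 and 213 TPM in Panc-1. The control of Panc-1 was the lowest of the 6 libraries, and the log2 fold change was 0.36 and 0.75 in PK-1, beside 1.62 and 1.53 in Panc-1. SNHG15, the host of SNORA9, was at 76.02, 59.8 and 45.5 TPM in PK-1 and at 94.6, 242 and 243 TPM in Panc-1. Like SNHG1, it was below the control in PK-1 (-0.34 and -0.73) and rose in Panc-1 (1.34 and 1.35). SNHG17 was nearly level in PK-1, at 43.2, 47.5 and 46.6 TPM, and rose in Panc-1, from 45.0 TPM to 98.0 and 95.1 TPM (1.11 and 1.06).

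EPB41L4A-AS1, the host of SNORA13, was higher in every treated library. It was at 34.5, 59.9 and 67.8 TPM in PK-1 and at 16.3, 36.0 and 38.1 TPM in Panc-1. It rose in Panc-1 (1.10 and 1.18) and stood at 0.78 and 0.96 in PK-1, where rescaling by median ratios took the RARγi-2 value just past 2-fold. EPB41L4A, on the other strand, was at 4.54 to 5.98 TPM in PK-1 and at or next to the floor in Panc-1. SNHG11, the host of SNORA60 and SNORA71E, was at 21.3, 26.5 and 35.2 TPM in PK-1 and at 19.1, 39.3 and 36.2 TPM in Panc-1. The log2 fold change in PK-1 was 0.30 and 0.70, and with RARγi-2 in Panc-1 the value was 0.89, so only the RARγi-1 value in Panc-1 passed 2-fold (2.01-fold), by a narrow margin that rescaling took away (0.92 on the log2 scale).

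In contrast, DANCR and SNHG4 were lower in every treated library than in their control. DANCR, the host of SNORA26, was at 119, 76.9 and 90.4 TPM in PK-1 and at 75.8, 43.9 and 36.2 TPM in Panc-1. It stood at -0.62 and -0.39 in PK-1, beside -0.77 and -1.05 in Panc-1, where it fell with RARγi-2 only. SNHG4, the host of SNORA74A and SNORA74D, was at 23.7, 9.25 and 2.49 TPM in PK-1 and at 8.28, 6.19 and 5.41 TPM in Panc-1. It fell in PK-1 (-1.27 and -2.82), where 2.75% and 0.95% of all entries had a lower value, and stood at -0.37 and -0.53 in Panc-1. SNHG4 lies on the same strand within the span of MATR3, which codes for a nuclear matrix protein, in GENCODE 29 and opposite SIL1, so how reads were divided between these genes is uncertain. MATR3 was at 120.1, 84.4 and 70.6 TPM in PK-1 and at 105, 85.6 and 69.0 TPM in Panc-1.

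Among the members with no annotated SNORA or SNORD gene, NEAT1 had the largest rise. NEAT1 (chr11:65422798-65445540, plus strand) was at 16.5, 57.0 and 67.3 TPM in PK-1 and at 25.5, 119.8 and 106 TPM in Panc-1. Every treated library was above both controls. Log2 fold changes of 1.73 and 1.96 in PK-1 stood beside 2.19 and 2.01 in Panc-1. A larger one was seen for 2.04% and 2.64% of entries in PK-1, and for 0.76% and 1.47% in Panc-1. NEAT1 has 8 annotated transcripts, and the values are per gene, so which of them changed is not known. The kit was poly(A)-based, so NEAT1 transcripts without a poly(A) tail may be missed. MALAT1, the neighbour of NEAT1 on chromosome 11, was listed at the floor in all 6 libraries, and SNHG27 was too. EIF4A1, a translation factor gene that every cell uses, was also at the floor in all 6 libraries, so a listing at the floor does not show that an RNA is absent.

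NORAD was higher in PK-1 than in Panc-1 in each condition, at 167, 279.8 and 299 TPM in PK-1 and at 60.2, 69.7 and 81.6 TPM in Panc-1. None of its comparisons passed 2-fold (0.74 and 0.83 in PK-1, 0.21 and 0.43 in Panc-1). CYTOR (cytoskeleton regulator RNA) was at 76.7, 79.2 and 45.1 TPM in PK-1 and at 39.5, 14.0 and 13.5 TPM in Panc-1. It fell in Panc-1 (-1.43 and -1.48), while in PK-1 it stood at 0.04 and -0.75. CYTOR has a near-identical copy, MIR4435-2HG, so how reads were divided between them is uncertain. TUG1 (taurine up-regulated) was at 40.1, 62.4 and 49.4 TPM in PK-1 and at 36.5, 38.9 and 37.5 TPM in Panc-1, with the largest log2 fold change at 0.62.

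**Figure D3:**
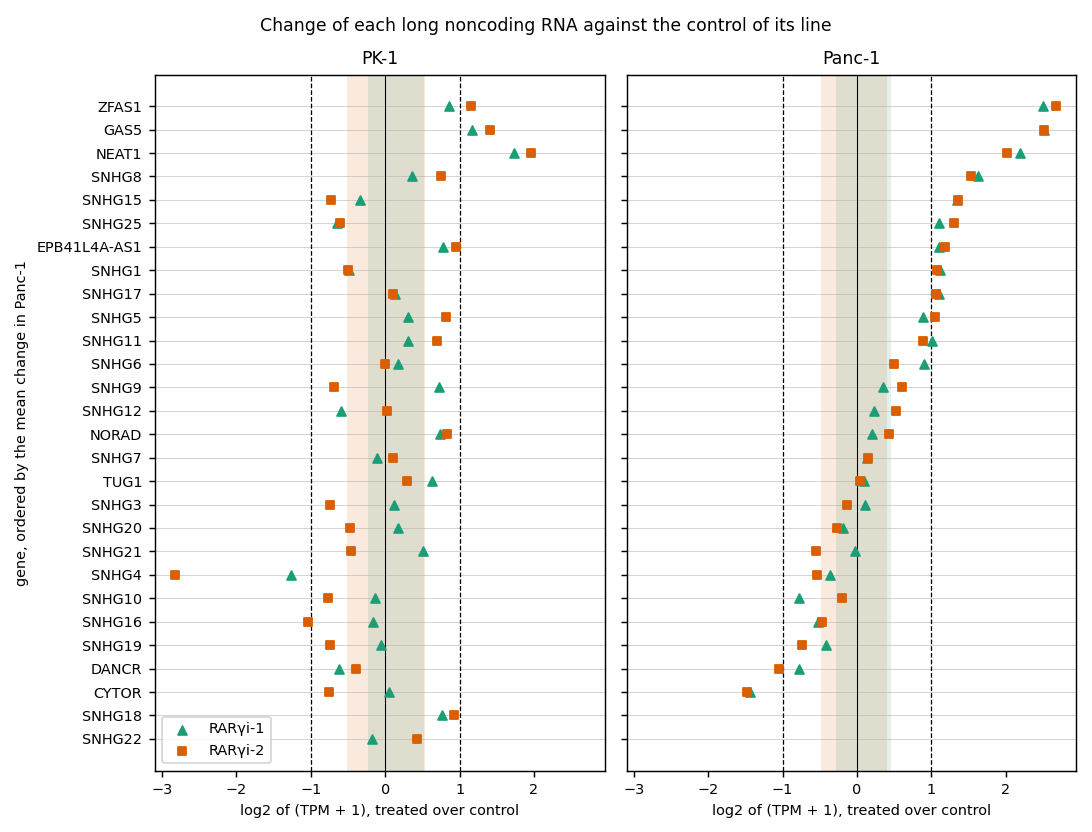
Log2 fold change of (TPM + 1) against the control of the line for each member, with PK-1 in the left panel, Panc-1 in the right panel, 1 point per inhibitor and lines at 2-fold. In Panc-1, 10 members lie past the upper line with each inhibitor and CYTOR lies past the lower one, while in PK-1 the upper line is passed by 2 members with RARγi-1 and by 3 with RARγi-2, and SNHG4 lies lowest at -2.82.

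The remaining members did not pass 2-fold in any comparison. SNHG3 was at 45.5, 49.6 and 26.8 TPM in PK-1 and at 73.3, 78.9 and 66.8 TPM in Panc-1. It lies on the same strand within the span of RCC1, the exchange factor gene for RAN, which fell in both lines, at 97.8, 35.1 and 20.7 TPM in PK-1 and at 96.3, 36.3 and 31.1 TPM in Panc-1. SNHG3 itself stood at 0.12 and -0.74 in PK-1 and at 0.11 and -0.13 in Panc-1. It was thus lower along with RCC1 mainly in PK-1 with RARγi-2. How reads were divided between SNHG3 and RCC1 is uncertain. SNHG12 was at 40.3, 26.5 and 40.9 TPM in PK-1 and at 50.2, 59.1 and 72.7 TPM in Panc-1. SNHG7 held nearly the same level throughout, with 59.7, 55.3 and 64.2 TPM in PK-1 and 45.1, 49.7 and 49.9 TPM in Panc-1.

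SNHG9, the host of SNORA78, was uneven in PK-1 at 18.4, 31.0 and 11.0 TPM and stood at 38.4, 49.2 and 58.9 TPM in Panc-1. The other members that bear the SNHG name were low. SNHG20, which overlaps SEC14L1 on the same strand, was at 9.59, 11.0 and 6.65 TPM in PK-1 and at 18.4, 16.0 and 15.1 TPM in Panc-1. SNHG10 was at 8.61, 7.73 and 4.64 TPM in PK-1 and at 8.70, 4.64 and 7.44 TPM in Panc-1. SNHG21 was at 6.01, 8.95 and 4.08 TPM in PK-1 and at 5.30, 5.16 and 3.32 TPM in Panc-1, and SNHG22 was at 3.02, 2.57 and 4.42 TPM in PK-1 and at the floor in Panc-1. At these levels the order of the 3 libraries differed from gene to gene.

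Next, the cell lines were compared. Of the 26 members above the floor in both lines, GAS5 and NEAT1 rose in both with RARγi-1, where 3.31% of 12799 entries did, and GAS5, NEAT1 and ZFAS1 rose in both with RARγi-2, where 5.27% did. None fell in both lines with either inhibitor, against 2.24% and 5.59% of entries. The difference between the lines in log2 fold change passed 2-fold in favour of Panc-1 for 6 of 26 members with RARγi-1 (GAS5, ZFAS1, SNHG1, SNHG8, SNHG15 and SNHG25), against 3.04% of entries. With RARγi-2 it did so for 7 (GAS5, ZFAS1, SNHG1, SNHG15, SNHG25, SNHG4 and SNHG9), against 6.56%. Only CYTOR with RARγi-1 passed 2-fold in favour of PK-1, against 6.88% of entries, and no member did with RARγi-2, against 8.74%. These differences rest on 4 libraries each and were not tested.

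**Figure D4:**
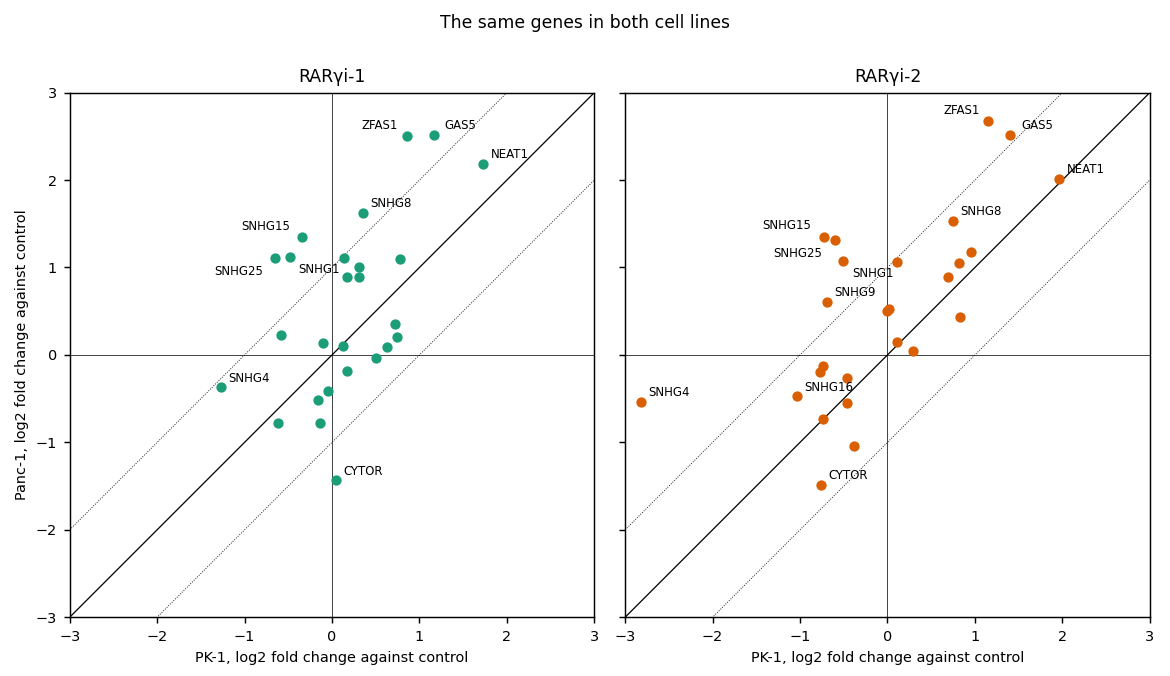
Log2 fold change in Panc-1 (vertical axis) against that in PK-1 (horizontal axis) for the 26 members above the floor in both lines, with RARγi-1 on the left, RARγi-2 on the right and 1 point per gene. The solid diagonal marks equal change and the dotted ones a 2-fold difference between the lines. GAS5, ZFAS1 and NEAT1 lie at the upper right, and SNHG1, SNHG15 and SNHG25 lie at the upper left, below their control in PK-1 and past 2-fold in Panc-1.

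Between the controls, SNHG5, SNHG9 and SNHG16 were higher past 2-fold in Panc-1, against 15.7% of 14618 entries. EPB41L4A-AS1, NORAD, SNHG4, SNHG18, SNHG22 and SNHG25 were higher in PK-1, against 14.6%. Between both treated libraries of a line, SNHG4 and SNHG9 were higher past 2-fold with RARγi-1 than with RARγi-2 in PK-1, where 4.4% of entries were, and none was higher with RARγi-2, where 1.34% were. In Panc-1 no member differed past 2-fold between the inhibitors in either direction, against 2.08% and 0.705% of entries. Since the doses are not stated and there is 1 library each, these values do not show that the inhibitors act alike on these RNAs.

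Grouped by the SNORA and SNORD genes they carry, the hosts had higher medians in Panc-1 than the members with none of these. The latter include SNHG10, SNHG20 and SNHG21, in which small RNAs with other symbols were not looked for. The median log2 fold change there was 0.90 and 1.05 over 7 hosts of box C/D snoRNAs, 0.68 and 0.75 over 10 hosts of H/ACA snoRNAs, and -0.03 and -0.20 over 7 members with none. In PK-1 the medians were 0.06 and -0.26 (8 hosts), 0.13 and -0.14 (10 hosts) and 0.34 and -0.08 (8 members). GAS5 and SNHG12, which held both kinds, were grouped apart, with medians of 1.37 and 1.52 in Panc-1 and 0.29 and 0.71 in PK-1. Each group was wide, and with RARγi-2 in Panc-1 the box C/D hosts ran from SNHG19 at -0.74 to ZFAS1 at 2.67. The members without a SNORA or SNORD gene ran from CYTOR at -1.48 to NEAT1 at 2.01.

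By transcript start, the 14 members in Panc-1 with at least 1 annotated oligopyrimidine start had medians of 0.89 and 0.71, and the 12 without had medians of 0.17 and 0.29. This grouping takes any annotated transcript, which was 1 of 38 for CYTOR and 1 of 25 for SNHG1. With each inhibitor, 6 of those 14 and 4 of those 12 rose, against 7.3% (RARγi-1) and 8.34% (RARγi-2) of all entries. GAS5 and SNHG16, which begin with the same letters at the starts printed above, stood at 2.52 and -0.52 with RARγi-1 in that line. EPB41L4A-AS1, SNHG15, SNHG17 and NEAT1 rose without such a start. In PK-1 the medians were 0.12 and -0.01 with this start (15 members) and 0.18 and 0.10 without it (13 members). The ribosomal protein genes, most of which share the start, had medians between -0.10 and -0.01 in the 4 comparisons.

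In the RefSeq promoters (250 bases before to 50 bases after the start, with 25 members in the table), 4 motifs were sought on both strands. The CHOP and ATF4 composite TGATGNAA was in none of the 25, and in 3.62% of all 35116 promoters. The antioxidant element TGACNNNGC was in 5 (MALAT1, NORAD, SNHG4, SNHG20 and SNHG27; 13.3% of all), and the E-box CACGTG was in 3 (NORAD, SNHG7 and TUG1; 7.26%). CCAAT was in 8, among them GAS5, SNHG5 and DANCR, and in 34.6% of all promoters. These windows lie around RefSeq starts, which can differ from the GENCODE starts printed above. For GAS5 the RefSeq start is base 173869045, against the printed 173867989. ZFAS1, SNHG1 and SNHG8 held none of the 4, which says only that these letters are not in this window.

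Genes that work with these RNAs were then examined as lists. Of 18 measured snoRNP core and assembly proteins, which bind and build the snoRNA particles, 3 fell in PK-1 with RARγi-1 (FBL, NOP56 and NOLC1) and 11 with RARγi-2, against 4.85% and 12.3% of all entries, or 5.92% and 15.2% of those reaching 10 TPM, and none rose. In Panc-1 none fell with RARγi-1, and NOP56 and RUVBL2 fell with RARγi-2, against 5.96% and 11% of all entries. In PK-1 their medians were -0.59 and -1.13, beside -0.17 and -0.15 in Panc-1. NOP56, a core protein of box C/D particles and itself a snoRNA host, was at 492, 219 and 122 TPM in PK-1 and at 409, 219 and 203 TPM in Panc-1. DKC1, the pseudouridine synthase of H/ACA particles, was at 112, 62.3 and 35.9 TPM in PK-1 and at 131, 166 and 167 TPM in Panc-1. GAS5, a host of 10 box C/D snoRNAs, thus rose in PK-1 while the core proteins FBL and NOP56 fell.

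Of 22 measured protein-coding snoRNA hosts outside the ribosomal proteins, none rose in PK-1 with RARγi-1 and TPT1 rose with RARγi-2, against 9.05% and 11.9% of all entries. In the same line 2 (NCL and NOP56) and 7 fell, against 4.85% and 12.3% of all entries. NOP56, NOP58 and DKC1 are also in the snoRNP list, so their falls in PK-1 with RARγi-2 are counted in both lists. In Panc-1 TAF1D rose with both inhibitors and TPT1 with RARγi-2, where 7.3% (RARγi-1) and 8.34% (RARγi-2) of all entries rose. NOP56 alone fell there, with RARγi-2, against 11% of all entries. These Panc-1 counts lie near or under the shares of all entries. The list's medians in PK-1 were -0.40 and -0.47, beside 0.02 and 0.15 in Panc-1. NCL, the nucleolin gene, was at 765, 349 and 265 TPM in PK-1 and at 1119, 657 and 689.9 TPM in Panc-1. TAF1D, a subunit of a polymerase I factor whose gene hosts many snoRNAs, was at 75.2, 92.4 and 79.9 TPM in PK-1 and rose in Panc-1, at 53.6, 122 and 137 TPM. TPT1, a translationally controlled tumour protein gene, was at 619.8, 1132 and 1494 TPM in PK-1 and at 317, 581 and 705 TPM in Panc-1. Among 84 measured cytosolic ribosomal protein genes, 0 and 2 rose in PK-1 and none fell, and 1 rose (RPL22L1) and 1 fell (RPL7A) with each inhibitor in Panc-1. Of all entries, 9.05% and 11.9% rose and 4.85% and 12.3% fell in PK-1. In Panc-1, 7.3% and 8.34% of them rose and 5.96% and 11% fell, so the ribosomal protein counts lie under these shares.

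**Figure D5:**
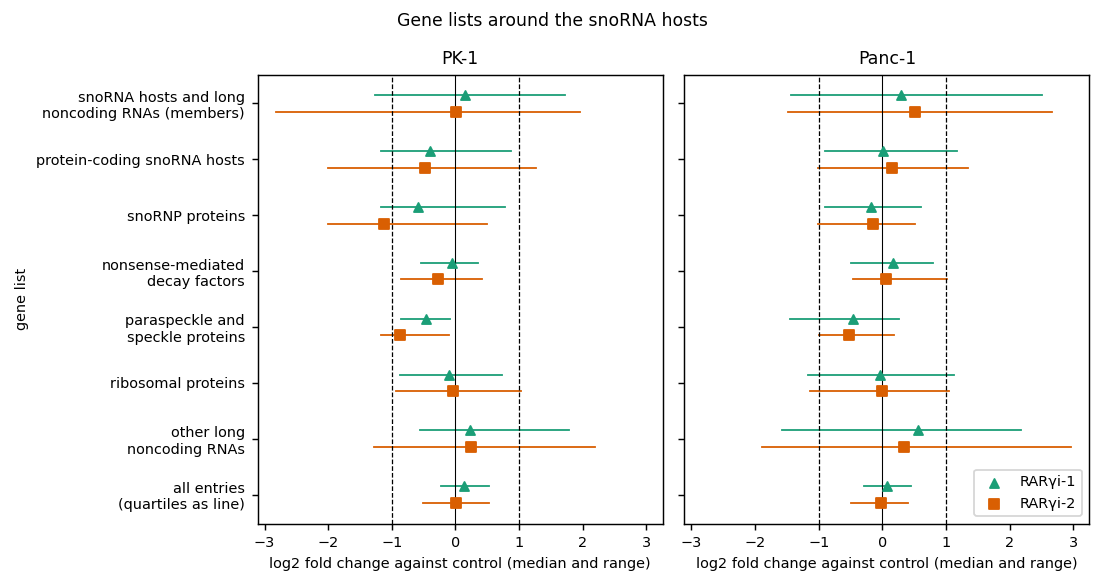
Median (point) and range (line) of the log2 fold change of each gene list for PK-1 (left panel) and for Panc-1 (right panel), with 1 colour per inhibitor, dashed lines at 2-fold and, for all entries, the quartiles in place of the range. The medians of the snoRNP proteins lie lowest in PK-1, at -0.59 and -1.13, and those of the ribosomal proteins lie between -0.10 and -0.01.

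None of the 16 nonsense-mediated decay factors passed 2-fold, except MAGOH, an exon junction protein gene, which rose with RARγi-2 in Panc-1 from 157 to 319 TPM. In that comparison 8.34% of all entries rose. Their PK-1 medians of -0.05 and -0.28 stood beside 0.17 and 0.06 in Panc-1. UPF1, the helicase of this pathway, was lower in each treated library, at 55.3, 37.6 and 36.2 TPM in PK-1 and at 56.3, 39.9 and 40.7 TPM in Panc-1, short of 2-fold. Proteins of paraspeckles, which NEAT1 scaffolds, and of nuclear speckles were listed together. Paraspeckles themselves were not measured, and the NEAT1 values do not show which of its transcripts changed. Of 10 paraspeckle and speckle protein genes, none rose in any comparison, 4 fell in PK-1 with RARγi-2 (SFPQ, NONO, PSPC1 and SRRM1) and SFPQ fell in Panc-1 with RARγi-1. Of all entries, 12.3% and 5.96% fell in these comparisons. The share of all entries that rose ranged from 7.3% to 11.9% over the 4 comparisons. That none of these 10 genes rose is therefore near the background. SFPQ, which binds NEAT1, was at 214, 134 and 94.5 TPM in PK-1 and at 207, 75.3 and 106 TPM in Panc-1.

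Of the 3 listed entries with other symbols, 2 are snoRNA hosts under names given later and are kept apart from the counts. C6orf48, which RefSeq now calls SNHG32, holds SNORD48 and SNORD52 and was at 126, 189.6 and 232 TPM in PK-1 and at 238, 821 and 776 TPM in Panc-1. LRRC75A-AS1, now SNHG29, holds 3 box C/D snoRNAs and was at 371, 487 and 597 TPM in PK-1 and at 236, 633 and 617 TPM in Panc-1. Both rose in Panc-1 with each inhibitor (1.78 and 1.70 for C6orf48, 1.42 and 1.38 for LRRC75A-AS1), where 7.3% and 8.34% of all entries rose. Neither passed 2-fold in PK-1 (0.59 and 0.87, 0.39 and 0.68). TAPT1-AS1 was between 2.16 and 2.93 TPM in the 6 libraries.

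Among 17 other long noncoding RNAs, 12 were measured in PK-1, where 3 rose with each inhibitor and 0 and 2 fell, and 15 in Panc-1, where 4 rose and 2 fell with each. Over all entries, 9.05% and 11.9% rose and 4.85% and 12.3% fell in PK-1, while 7.3% and 8.34% rose and 5.96% and 11% fell in Panc-1. The medians of these RNAs were 0.23 and 0.24 in PK-1, beside 0.56 and 0.34 in Panc-1. MIR22HG, the host of a microRNA, rose in all 4 comparisons, at 28.7, 101 and 136 TPM in PK-1 and at 19.2, 90.1 and 157 TPM in Panc-1. H19 was listed at the floor in PK-1 and fell in Panc-1, at 72.8, 34.2 and 31.2 TPM. HOTAIR, also at the floor in PK-1, fell in Panc-1 too, at 28.4, 8.82 and 6.90 TPM.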

How the data were processed

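RNA from 6 cultures was sequenced after library preparation with a stranded mRNA kit, with 1 library per condition. The authors deposited log2 values of TPM for each library, with values under 1 TPM raised to 1 TPM, so that the lowest log2 value is 0. Genome build hg38 is listed in the submitters' processing notes. The aligner, counter, annotation and use of strand are not given in the sources used here.

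The log2 values were converted to linear TPM with Python 3.11.15, numpy 2.4.6 and pandas 2.3.3 (matplotlib 3.10.9 for plots). Log2 fold changes used a pseudocount of 1 TPM, over entries above the floor in at least 1 library of the line. For a repeated symbol (113 symbols) the entry with the highest mean was taken. The spread per library (0.29 in PK-1, 0.23 in Panc-1) is the median absolute deviation of the difference between both treated libraries, multiplied by 1.4826 and divided by the square root of 2. No p-value was computed. The steps were tested on simulated data.

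Members reaching 100 TPM or past 2-fold in at least 1 comparison (17) were described singly, the other 11 above the floor by value, and 2 were at the floor throughout. Members and gene lists were chosen with earlier results of these data known. Names, spans and promoters came from RefSeq GRCh38.p14 and transcript starts from GENCODE 29 (30 of 30 members matched by Entrez ID in both). Alternatives were no pseudocount, 0.1 TPM, a minimum of 5 TPM, median ratio rescaling, summed repeated symbols, and thresholds of 1.5-fold and 3-fold. Some genes of the lists are not reported here.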

Additional observations from a re-analysis of the deposited data

Results flagged for a closer look

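SNHG15, SNHG1 and SNHG25 were below the control with both inhibitors in PK-1 and above it with both in Panc-1. The log2 fold change in Panc-1 minus that in PK-1 was 1.69 (RARγi-1) and 2.08 (under RARγi-2) for SNHG15, 1.61 and 1.58 for SNHG1, and 1.75 and 1.91 for SNHG25. The values below the control in PK-1 did not pass 2-fold. That of SNHG15 with RARγi-1 (-0.34) was within the spread of a log2 fold change in PK-1 (0.41). Those of SNHG1 (-0.48 and -0.51) were only slightly beyond it. The difference between the lines was not tested. There is 1 library per condition, and both inhibitors share the control of each line.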

How the results depend on the processing

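The medians of the members moved by less than the spread between libraries under every alternative run. With a threshold of 1.5-fold, the members that rose numbered 8 and 9 in PK-1, and those that fell numbered 4 and 9 in PK-1 and 3 in Panc-1 with RARγi-1. With 3-fold, 1 and 1 rose in PK-1 while 4 and 3 rose in Panc-1, and 0 and 1 fell in PK-1 while 0 and 0 fell in Panc-1. The shares of all entries past 1.5-fold and 3-fold were not computed. These counts therefore show only how the calls depend on the threshold. Median ratio rescaling left 1 that fell in PK-1 with RARγi-2, since SNHG16 was then at -0.99, and it shifted the 4 comparisons by -0.11, 0.05, -0.09 and -0.00 on the log2 scale. Of 108 single values, none past 2-fold changed direction. Rescaling turned the sign of 2 small ones, CYTOR in PK-1 with RARγi-1 (0.04 to -0.06) and SNHG6 in PK-1 with RARγi-2 (-0.01 to 0.04), and a minimum of 5 TPM turned the members' median in PK-1 with RARγi-2 from 0.01 to -0.01. Of the single values, 3 moved past the spread without a pseudocount: SNHG4 in PK-1 with RARγi-2 (-3.25) and SNHG25 in Panc-1 (1.40 and 1.64). No paired analysis was possible because the groups share 1 replicate number, with 1 library each, so no replicate could be left out either. A fit with the cell line as a block was not run. TPM keeps no depth, so what depth limits cannot be stated.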
